A study of Mus musculus with 6 samples.

Results

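The genes examined here encode subunits of CCR4-NOT, the complex that shortens the poly(A) tails of cytoplasmic mRNAs, and adaptor proteins that bring the complex to its targets. They were taken by symbol from the deposited expression table and number 10 of its 24255 genes: the subunits Cnot1, Cnot2, Cnot3, Cnot6, Cnot6l, Cnot7 and Cnot8, and the adaptors Btg4, Tob1 and Zfp36l2. Expression was measured in fully-grown oocytes (FGOs) at the germinal vesicle (GV) stage, which have finished growth and are arrested in prophase of the first meiosis. One group was wild type (WT) and the other Lsm14b-KO, homozygous for Lsm14b tm1a(KOMP)Mbp, a knockout-first allele in which a reporter-tagged insertion disrupts Lsm14b in every cell of the animal. Both were kept on a C57BL/6J background, and their females received PMSG, which drives follicle growth, at 5 IU each, 46 h before collection. Each group held 3 RNA-Seq libraries of 20 pooled oocytes, and the sources used here give neither the age of the mice nor whether the libraries of a group came from separate animals, so p-values measure the spread between these libraries, which may be technical.

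A growing oocyte accumulates mRNAs that must last after transcription stops. Many of them are kept with short poly(A) tails or in translationally silent particles until meiosis resumes. Deadenylation by CCR4-NOT then starts the clearance of many stored mRNAs. CNOT1 is the scaffold of the complex, CNOT2 and CNOT3 bind its C-terminal end, and the catalytic part pairs a CCR4-type exonuclease (CNOT6 or CNOT6L) with a CAF1-type exonuclease (CNOT7 or CNOT8). BTG4 and TOB1 belong to the BTG/TOB family, whose shared domain binds the CAF1-type exonucleases, and ZFP36L2 binds AU-rich elements in mRNAs.

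Values are FPKM, fragment numbers divided by transcript length and library size, so levels can be set beside each other between genes. Differences were tested with limma on log2(FPKM + 1) over the 6398 genes that reached 1 FPKM in at least 1 library, with Benjamini-Hochberg adjustment over all of them and a two-sided threshold of 0.05. Lsm14b itself, the targeted gene, had 2.77, 3.98 and 1.72 FPKM in WT and 0, 0 and 0.102 FPKM in Lsm14b-KO (adjusted p = 0.00380, limma). The 10 oocyte markers examined (among them Gdf9, Zp3 and Ooep) summed to 13810 to 14900 FPKM in WT and 12540 to 16040 FPKM in Lsm14b-KO, and 1 of them, Nobox, was called higher in Lsm14b-KO (12.51 and 65.8 FPKM on average). With Lsm14b-KO replicate 1 left out, 7 of the 10 passed, 6 higher and 1 (Oosp1) lower in Lsm14b-KO (limma). The same omission called 2898 of all 6398 tested genes, 1151 higher and 1747 lower. The 12 cumulus and granulosa cell markers summed to 9.73 to 13.6 FPKM in WT and 6.13 to 10.2 FPKM in Lsm14b-KO, with Amh, Inhba and Foxl2 at 0 in all 6 libraries. The most abundant of them was Cyp19a1, at 11.5, 8.26 and 10.5 FPKM in WT and 5.47, 3.00 and 5.76 FPKM in Lsm14b-KO (adjusted p = 0.0426, limma, and up to 0.309 over the alternatives). Fshr went the other way, at 1.68, 0.5255 and 0.349 FPKM in WT and 2.075, 1.91 and 1.82 FPKM in Lsm14b-KO (adjusted p = 0.0923, limma). Of the 3 markers tested, 2 were fitted higher and 1 lower in Lsm14b-KO. The part of these markers in the results below was not tested. Red blood cell markers (5 of 6 in the table) were all at 0, and leukocyte and endothelial markers summed to at most 1.80 FPKM, with 4 of 6 at 0. Relative depth, estimated from the steps between very low values, was 1 to 1.14 in the WT libraries and 1.33 to 2.17 in the Lsm14b-KO libraries. Within its group, Lsm14b-KO replicate 1 stood apart by its FPKM sum, 1029728 against 564671 and 676656, and in this sum lay nearer to WT (1141324 to 1244182). Over log2 values of the tested genes, Pearson r with the WT libraries was 0.952 to 0.954 for Lsm14b-KO replicate 1. It was 0.867 to 0.89 for replicate 2 and 0.917 to 0.929 for replicate 3. Within Lsm14b-KO, replicate 1 correlated at 0.917 with replicate 2 and at 0.96 with replicate 3. Replicates 2 and 3 correlated at 0.974. Results that rest on Lsm14b-KO replicate 1 are given with and without it.

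The mean levels of the 10 genes in WT oocytes ran from 0.0507 to 4984 FPKM, as the plot of levels by library shows. Btg4, the oocyte-specific adaptor, was the most abundant in both groups, at 4984 ± 547 FPKM in WT and 1354 ± 234 FPKM in Lsm14b-KO (SD, n = 3). Cnot7 followed at 215 ± 17.5 FPKM in WT and 117 ± 42.9 FPKM in Lsm14b-KO. The other 8 stayed under 16 FPKM in every library, and Cnot1, Cnot6 and Zfp36l2 did not reach 1 FPKM in any, so that 7 of the 10 entered the test. In WT, the means fell in the order Btg4, Cnot7, Cnot3, Cnot2, Cnot6l, Cnot8, Tob1, Cnot6, Cnot1 and Zfp36l2. The ranges of Cnot2 and Cnot6l overlapped, as did those of Cnot6 and Cnot1, and the other neighbours in this order did not. In Lsm14b-KO the middle of the order was different, with Cnot6l, Cnot2, Cnot3, Tob1 and Cnot8 following Cnot7, and each of these 5 overlapped with the next of them.

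**Figure D1:**
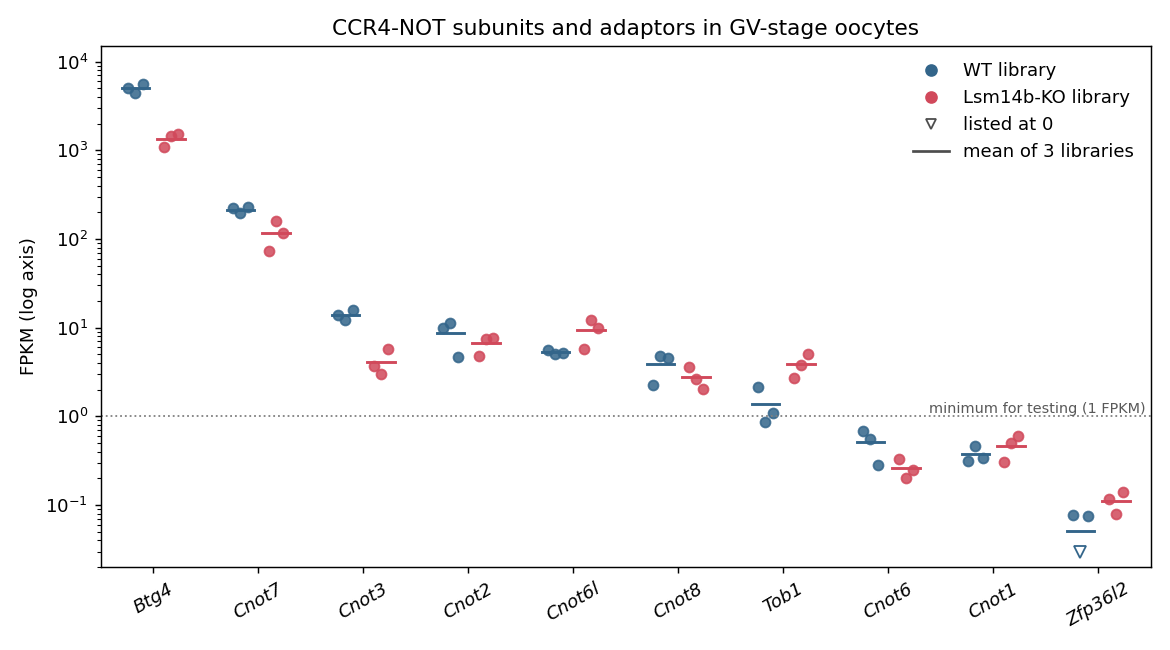
FPKM (log axis) of the 10 genes in each of the 3 WT and 3 Lsm14b-KO libraries, with horizontal lines at the group means, an open triangle for a value listed at 0 and a dotted line at 1 FPKM. Btg4 lies between 4441 and 5534 FPKM in WT and between 1087 and 1522 FPKM in Lsm14b-KO, and Cnot1, Cnot6 and Zfp36l2 lie under 1 FPKM in all libraries.

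Of the 7 tested genes, 1 rose (Tob1) and 2 fell (Btg4 and Cnot3) in Lsm14b-KO oocytes by limma at an adjusted p under 0.05. Over all tested genes 21.6% passed the same test, 6.38% higher and 15.2% lower. Without Lsm14b-KO replicate 1, Cnot7 and Cnot6l passed as well (5 of 7), and the calls over all genes went from 1383 to 2898. With any of the other 5 libraries left out, 2 or 3 of the 7 passed, beside 315 to 865 of all genes. The values of WT and Lsm14b-KO did not overlap for 5 of the 7 (Btg4, Cnot3, Cnot7, Tob1 and Cnot6l), beside 45.0% of all tested genes. Over the 7 tested members the median change was -0.36 on the log2 scale, beside -0.08 over all tested genes. The split of the calls between directions depended on the scaling of the libraries: it was 408 higher and 975 lower with FPKM as deposited, 833 and 486 with every library scaled to the same sum (TPM), 540 and 735 after quantile normalization, 622 and 795 after median ratio scaling, and 573 and 819 after correction for transcript length and GC content. Those scalings moved the median of all genes up by 0.47, 0.14, 0.18 and 0.14 on the log2 scale, respectively, and changes of the members are therefore also given relative to that median. Fewer transcripts per oocyte and a smaller share of a library's RNA cannot be told apart in these values, which are relative to each library's total.

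**Figure D2:**
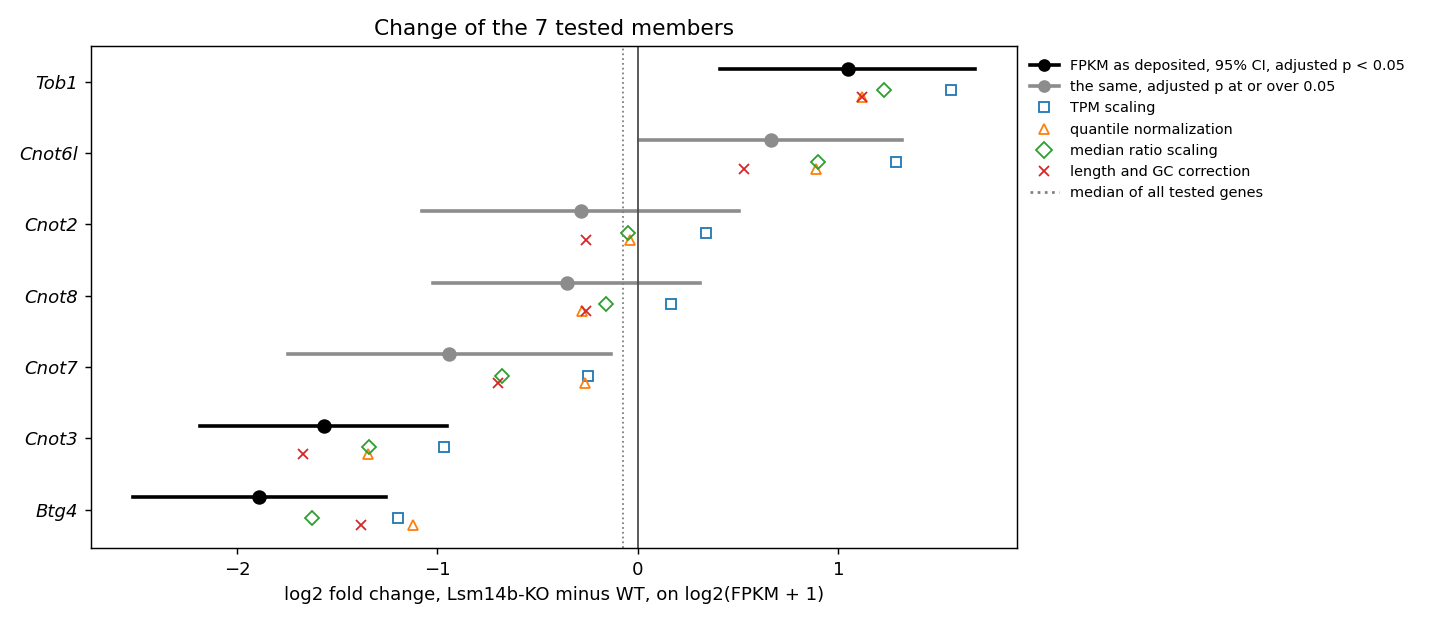
Log2 fold change (Lsm14b-KO minus WT, on log2(FPKM + 1)) of the 7 tested genes with its 95% confidence interval from limma, with open symbols and crosses for the same difference under 4 other scalings and a dotted line at the median of all tested genes. Tob1 and Cnot6l stay above 0 and Btg4, Cnot3 and Cnot7 below 0 under all 5, while Cnot2 and Cnot8 cross to 0.34 and 0.16 with libraries scaled to the same sum (TPM).

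Btg4 and Tob1, adaptors of the same protein family, moved in opposite directions, and their promoters are shown for that reason. RefSeq (GRCm38.p6) gave promoters for 7 of the 10 genes. The 250 bases before the RefSeq start of Btg4 lie at chr9:51115751-51116000 on the plus strand, and those of Tob1 at chr11:94211204-94211453 on the plus strand. The Btg4 stretch lies inside the gene as annotated by GENCODE vM21 (chr9:51060901-51119875), which starts further upstream. Which start these oocytes use was not tested. Capitals mark an E-box (CANNTG, its own reverse complement) in Btg4 and a TATAAA in Tob1.

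Btg4: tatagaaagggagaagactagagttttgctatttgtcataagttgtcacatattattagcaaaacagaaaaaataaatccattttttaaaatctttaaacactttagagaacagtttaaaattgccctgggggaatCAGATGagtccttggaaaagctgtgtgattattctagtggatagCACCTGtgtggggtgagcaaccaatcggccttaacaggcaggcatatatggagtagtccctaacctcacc
Tob1: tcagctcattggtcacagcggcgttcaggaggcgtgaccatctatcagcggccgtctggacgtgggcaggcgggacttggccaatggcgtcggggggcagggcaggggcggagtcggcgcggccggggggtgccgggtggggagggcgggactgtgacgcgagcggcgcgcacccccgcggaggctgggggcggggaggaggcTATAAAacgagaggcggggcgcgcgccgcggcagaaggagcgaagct

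The Btg4 stretch was AT-rich, with 38% GC and 1 CG, while that of Tob1 held 73.6% GC and 32 CG. The median of 32851 promoters of this length was 52.4% GC and 6 CG. Btg4 held 2 E-boxes and no TATAAA on either strand, and Tob1 held 1 TATAAA and no E-box. An E-box was found in 66.2% of all promoters of this length and a TATAAA in 12.4%, and the other motif searched, TAATTN, was in 24.9% of them and in neither of these. The motifs did not overlap in the stretches shown.

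Btg4 was one of the most abundant mRNAs of the WT oocytes. In WT replicates 1, 2 and 3 its values were 4979, 4441 and 5534 FPKM, and in Lsm14b-KO replicates 1, 2 and 3 they were 1087, 1454 and 1522 FPKM. Every Lsm14b-KO library was far below every WT library. The mean was 3.68-fold lower, and the log2 fold change was -1.89 ± 0.27 (SE, n = 3 per group, 95% CI -2.52 to -1.26, adjusted p = 0.00474, limma). Ranked by FPKM among all genes of the table, Btg4 stood between places 46 and 57 in WT and between 73 and 154 in Lsm14b-KO, with the lowest place in Lsm14b-KO replicate 1. It made up 0.4%, 0.379% and 0.485% of the summed FPKM of the WT libraries and 0.106%, 0.257% and 0.225% of the Lsm14b-KO libraries, groups that again did not overlap. The fall was smaller when libraries were scaled to the same sum (-1.20, adjusted p = 0.0410) or corrected for transcript length and GC content (-1.38, adjusted p = 0.0201), and after quantile normalization it no longer passed (-1.12, adjusted p = 0.0649, limma). Relative to the median of all genes it was -1.19 to -1.81 under the 5 scalings. Without Lsm14b-KO replicate 1 it was -1.74 (adjusted p = 0.000783, limma). The annotated Btg4 gene (GENCODE vM21, GRCm38, chr9:51060901-51119875, plus strand) overlaps Layn, 4833427G06Rik, Mir34b and Mir34c, all 4 on the other strand and all listed at 0 in every library, and no near copy of its transcript was found elsewhere.

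Among 2559 other tested genes with a mean of at least 5 FPKM, those whose log2 values followed Btg4 most closely over the 6 libraries were Commd9 (Pearson r = 0.998), Obox1 (r = 0.996) and Vta1 (r = 0.995). Mean FPKM was 16.4 in WT and 2.83 in Lsm14b-KO for Commd9, 32460 and 15980 for Obox1, an oocyte homeobox gene, and 201 and 112 for Vta1. These values describe 6 libraries that fall into 2 groups, and 119 of the 2559 genes had an r over 0.95.

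Tob1, the adaptor that also contacts poly(A)-binding protein, was present at low levels and higher in Lsm14b-KO. It was listed at 2.13, 0.875 and 1.09 FPKM in WT and at 2.72, 3.79 and 5.05 FPKM in Lsm14b-KO. The lowest Lsm14b-KO library lay just above the highest WT library. The mean was 2.83-fold higher and the log2 fold change 1.05 ± 0.28 (SE, 95% CI 0.41 to 1.68, adjusted p = 0.0335, limma), an understatement of the change because the level is close to the pseudocount of 1. Its rank by FPKM went from a median of place 4709 in WT to place 2705 in Lsm14b-KO. The call was lost whenever a library other than Lsm14b-KO replicate 1 was left out: adjusted p was 0.0543, 0.129 and 0.118 without WT replicates 1, 2 and 3 and 0.0762 and 0.133 without Lsm14b-KO replicates 2 and 3, with log2 fold changes of 0.87 to 1.27 over all 6 omissions. Without Lsm14b-KO replicate 1 it was 1.22 (adjusted p = 0.0119, limma), and relative to the median of all genes it was 1.05 to 1.16 under each of the 5 scalings. Tob1 (chr11:94211454-94215495, plus strand, GRCm38) overlaps no other annotated gene.

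The ratio of Btg4 to Tob1 within a library, which stays the same when all values of a library are multiplied by a common factor, was 2340, 5073 and 5075 in WT and 399, 384 and 301 in Lsm14b-KO. On the log2 scale with a pseudocount of 1 it went from 11.07 ± 0.39 to 8.14 ± 0.14 (SD, n = 3), a difference of -2.93. With the pseudocount, this difference does depend on a common factor. It was -2.76 with libraries scaled to the same sum (TPM) and -2.85 after median ratio scaling. Quantile normalization and the length and GC correction, which change genes unequally, gave -2.24 and -2.50. The groups did not overlap, and the exact two-sided permutation p of 0.10 is the smallest that 3 against 3 libraries allow (0.15 after adjustment over the 3 ratios tested).

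Zfp36l2, the adaptor for AU-rich mRNAs, was at the limit of detection. It was listed at 0.0772, 0 and 0.0749 FPKM in WT and at 0.116, 0.0792 and 0.142 FPKM in Lsm14b-KO. Scaled by relative depth and expressed in multiples of the WT replicate 1 value, these were 1, 0 and 1 in WT and 2, 2 and 4 in Lsm14b-KO, whole numbers to 2 decimals. The groups did not overlap, but the highest WT value and the lowest Lsm14b-KO value were nearly equal (0.0772 and 0.0792 FPKM). With so few steps a difference was not detectable at this depth. Without a minimum, limma gave a log2 fold change of 0.08 (adjusted p = 0.373). The exact permutation p of the 6 values was 0.10, the smallest possible. Zfp36l2 lies at chr17:84183931-84187947 on the minus strand.

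Cnot3, a subunit of the part of the complex that binds the C-terminal end of CNOT1, was lower in Lsm14b-KO oocytes, and its partner Cnot2 was not called. Cnot3 was listed at 13.9, 12.1 and 15.9 FPKM in WT and at 3.69, 3.01 and 5.75 FPKM in Lsm14b-KO. All Lsm14b-KO values lay under the lowest WT value. The mean was 3.37-fold lower, and the log2 fold change was -1.57 ± 0.27 (SE, 95% CI -2.18 to -0.95, adjusted p = 0.00779, limma). It passed the test with every single library left out (adjusted p 0.00510 to 0.0485) and lost the call only with libraries scaled to the same sum (-0.97, adjusted p = 0.0634). Relative to the median of all genes it was -1.37 to -1.74 under the 5 scalings. Cnot3 lies at chr7:3645268-3661109 on the plus strand (GENCODE vM21, GRCm38) and overlaps Leng1 on the other strand, from which its reads cannot be told apart where strand is not counted. Leng1 was listed at 0.213 to 1.05 FPKM over the 6 libraries. A near copy of the Cnot3 transcript is annotated as Gm9207, so reads may have been split between them.

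Cnot2 was listed at 10.0, 11.4 and 4.72 FPKM in WT and at 4.86, 7.49 and 7.70 FPKM in Lsm14b-KO. The groups overlapped, with the lowest value of all in WT replicate 3. The log2 fold change was -0.28 (95% CI -1.08 to 0.51, adjusted p = 0.545, limma), and the fitted value changed sign to 0.34 when libraries were scaled to the same sum. Cnot2 lies at chr10:116485161-116581511 on the minus strand. Whether Cnot3 and Cnot2 differed from each other in their change was not tested.

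Cnot1, the scaffold on which the other subunits assemble, was listed at a low level in all 6 libraries. The values were 0.314, 0.469 and 0.336 FPKM in WT and 0.308, 0.499 and 0.594 FPKM in Lsm14b-KO. The groups overlapped, the exact two-sided permutation p was 0.50, and without a minimum limma gave 0.09 (adjusted p = 0.694). The Cnot1 transcript used here is 8364 nt long (chr8:95719451-95807464, minus strand, GRCm38). In this table long transcripts had low values in general: of 1671 genes listed above 0 with a transcript over 6000 nt, 81.0% had a mean under 1 FPKM, beside 43.6% of 1356 genes with transcripts of up to 1000 nt. Cnot6l, whose transcript is 8564 nt long, nevertheless reached 5.11 FPKM or more in every library. Gm6158, a near copy of Cnot1, was not analysed here.

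The 4 exonuclease genes fall into 2 pairs of paralogs, and one partner held most of the FPKM in each. The first 150 coding bases of Cnot7 (chromosome 8, minus strand) and Cnot8 (chromosome 11, plus strand), from GENCODE vM21 transcripts on GRCm38, are shown because reads of 150 bases had to be assigned to either gene. The 45 positions at which they differ are in capitals.

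Cnot7: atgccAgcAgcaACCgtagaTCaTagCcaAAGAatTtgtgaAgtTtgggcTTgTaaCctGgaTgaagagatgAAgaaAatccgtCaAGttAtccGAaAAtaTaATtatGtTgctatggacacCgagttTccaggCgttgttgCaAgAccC
Cnot8: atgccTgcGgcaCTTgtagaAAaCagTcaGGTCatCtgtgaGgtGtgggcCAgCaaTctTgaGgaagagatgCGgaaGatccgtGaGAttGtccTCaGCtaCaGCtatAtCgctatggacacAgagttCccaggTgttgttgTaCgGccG

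Over the whole coding sequence, 605 of 855 aligned bases (70.8%) were identical between Cnot7 and Cnot8, and the longest identical run was 20 bases. For Cnot6l and Cnot6 it was 1209 of 1650 bases (73.3%), also with a longest run of 20. No stretch as long as a read was shared within either pair. Cnot8 has a near copy elsewhere in the genome, Gm18860, which was not analysed here.

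Cnot7, the dominant CAF1-type exonuclease, was listed at 221, 195 and 229 FPKM in WT and at 73.9, 160 and 116 FPKM in Lsm14b-KO. The groups did not overlap, and the Lsm14b-KO libraries differed among themselves by more than the WT libraries did. The log2 fold change was -0.94 ± 0.35 (SE, 95% CI -1.75 to -0.14, adjusted p = 0.0871, limma) and missed the threshold. It passed when Lsm14b-KO replicate 1 (-0.65, adjusted p = 0.0431) or replicate 2 (-1.20, adjusted p = 0.0392) was left out, while the range over all alternatives ran to an adjusted p of 0.681. With libraries scaled to the same sum the difference was -0.25, and Cnot7 made up 0.0178%, 0.0167% and 0.02% of the summed FPKM in WT and 0.00718%, 0.0283% and 0.0172% in Lsm14b-KO, groups that overlapped. Cnot7 lies at chr8:40492540-40515847 on the minus strand and overlaps Vps37a and Zdhhc2 on the other strand, with Vps37a at 0.301 to 0.716 FPKM and Zdhhc2 at 0.

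Cnot8, the other CAF1-type exonuclease (chr11:58104153-58118594, plus strand), was listed at 2.28, 4.86 and 4.55 FPKM in WT and at 3.63, 2.63 and 2.03 FPKM in Lsm14b-KO. The groups overlapped. The log2 fold change was -0.36 (95% CI -1.02 to 0.31, adjusted p = 0.370, limma), and it changed sign to 0.16 when libraries were scaled to the same sum. The ratio of Cnot7 to Cnot8 was 96.9, 40.2 and 50.3 in WT and 20.4, 60.6 and 57.5 in Lsm14b-KO. It varied as much within the groups as between them, with a log2 difference of -0.59 (exact two-sided permutation p = 0.50 before and after adjustment over 3 ratios). After quantile normalization the difference was 0.02.

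Cnot6l, the CCR4-type exonuclease with the higher level, was listed at 5.54, 5.11 and 5.22 FPKM in WT and at 5.80, 12.3 and 9.88 FPKM in Lsm14b-KO. The groups did not overlap, but Lsm14b-KO replicate 1 lay next to the highest WT library. The log2 fold change was 0.66 ± 0.28 (SE, 95% CI 0.01 to 1.32, adjusted p = 0.124, limma) and missed the threshold. Without Lsm14b-KO replicate 1 it was 0.94 and passed (adjusted p = 0.00834), and the adjusted p ran from there to 0.288 over all alternatives. Cnot6l lies at chr5:96070333-96164171 on the minus strand and overlaps no other annotated gene.

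Cnot6 (chr11:49671503-49712723, minus strand) was listed at 0.689, 0.562 and 0.287 FPKM in WT and at 0.334, 0.202 and 0.250 FPKM in Lsm14b-KO. The groups overlapped through WT replicate 3, and the exact permutation p was 0.20. The ratio of Cnot6l to Cnot6 was 8.04, 9.09 and 18.2 in WT and 17.4, 60.9 and 39.5 in Lsm14b-KO. On the log2 scale with a pseudocount of 1, which brings the low Cnot6 values together, it went from 2.06 ± 0.18 to 2.98 ± 0.57 (SD, n = 3), a difference of 0.92 without overlap (exact two-sided permutation p = 0.10, the smallest possible, and 0.15 after adjustment). In the raw ratios the groups did overlap.

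As shares of the summed FPKM of the 4 exonuclease genes, Cnot7 made up 96.3%, 94.9% and 95.8% in WT and 88.3%, 91.3% and 90.6% in Lsm14b-KO. Cnot6l made up 2.41%, 2.48% and 2.18% in WT and 6.93%, 7.04% and 7.68% in Lsm14b-KO. The values of Cnot6l lay close together within each group, Lsm14b-KO replicate 1 included, and did not overlap between the groups. Cnot8 (0.994% to 4.34%) and Cnot6 (0.116% to 0.399%) overlapped. No test was run on these shares, which were computed after the levels had been seen, and a share of Cnot6l moves with Cnot7 as well as with Cnot6l.

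**Figure D3:**
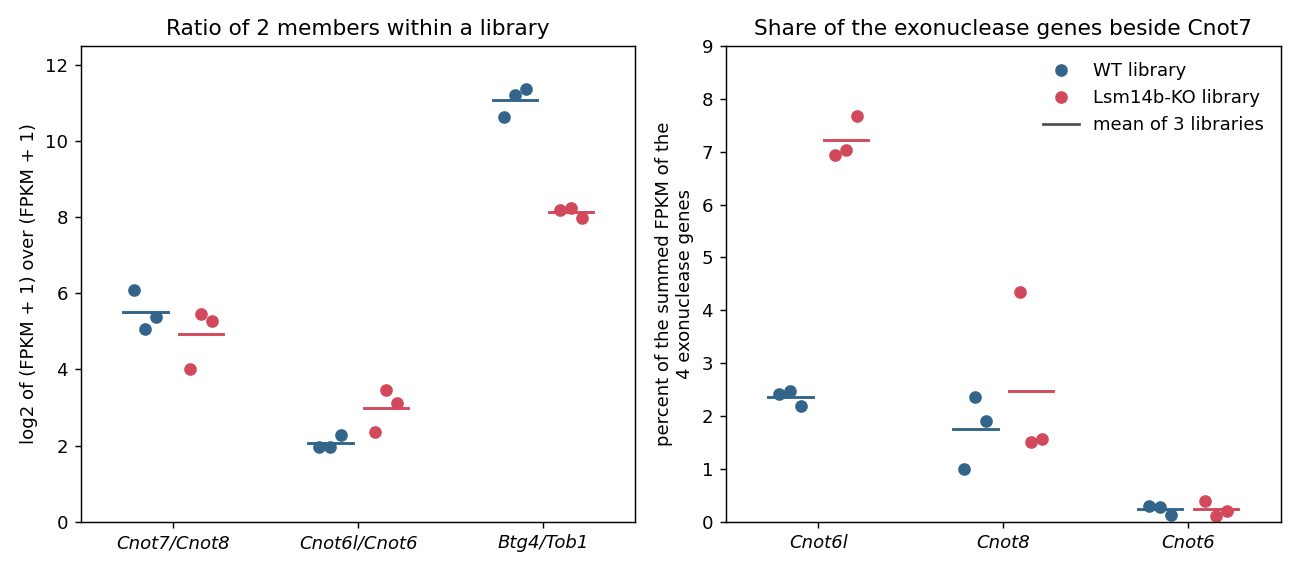
Ratios and shares within each library, from FPKM as deposited, with 3 WT and 3 Lsm14b-KO points per item and lines at the group means. The left axis is the log2 ratio of FPKM + 1 of 2 genes and shows the groups apart for Btg4/Tob1 (11.07 and 8.14 on average) and Cnot6l/Cnot6 (2.06 and 2.98) and mixed for Cnot7/Cnot8. The right axis is the percent of the summed FPKM of Cnot6, Cnot6l, Cnot7 and Cnot8 and shows Cnot6l at 2.18% to 2.48% in WT and 6.93% to 7.68% in Lsm14b-KO.

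The remaining genes of the deadenylation pathway were read from lists written for this purpose. Of 4 other CCR4-NOT subunits, 3 were tested and 0 were called by limma, beside 21.6% of all tested genes, with 0 at an unadjusted p under 0.05. Cnot4, a ubiquitin ligase that associates with the complex, was listed at 9.52, 10.1 and 10.99 FPKM in WT and at 8.44, 19.4 and 21.5 FPKM in Lsm14b-KO (adjusted p = 0.279). Cnot11 was at 1.74, 2.59 and 2.70 FPKM in WT and at 3.27, 2.18 and 2.16 FPKM in Lsm14b-KO (adjusted p = 0.800). In both the groups overlapped, and the median change of the 3 was 0.54 on the log2 scale. Cnot9, named after its values were seen, reached 1 FPKM only in Lsm14b-KO, at 0.189, 2.196 and 1.58 FPKM against 0, 0.294 and 0.570 FPKM in WT. Without Lsm14b-KO replicate 1, Cnot4 (0.94, adjusted p = 0.00718) and Cnot9 (1.18, adjusted p = 0.00978) passed, whereas Cnot11 did not (adjusted p = 0.826, limma). Cnot9 entered the test only through Lsm14b-KO, where it was high, so its pass gives no count of the list. The median of the 3 is set in part by the same minimum and gives no direction for them. The same omission called 2898 of all 6398 tested genes.

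Among 20 other proteins known to recruit CCR4-NOT, 6 were tested, of which 3 were called higher and 1 lower, beside 6.38% and 15.2% of all tested genes, and 14 stayed under 1 FPKM in all libraries. Ythdf2, which binds m6A-modified mRNAs and brings them to the complex, was listed at 3.50, 2.55 and 3.21 FPKM in WT and at 11.6, 21.3 and 19.2 FPKM in Lsm14b-KO. The groups were far apart, with a 5.63-fold higher mean and a log2 difference of 2.13 ± 0.28 (SE, adjusted p = 0.00328, limma), and the call held under all 18 alternatives run. Nanos2, a germ cell RNA-binding protein, was listed at 4.11, 3.96 and 3.13 FPKM in WT and at 1.13, 0.666 and 0.888 FPKM in Lsm14b-KO. It fell by 1.32 ± 0.20 (SE) on the log2 scale (adjusted p = 0.00524, limma) and also held under all 18. Btg3 and Tob2, further BTG/TOB family members, were called higher (0.94, adjusted p = 0.0449 and 0.89, adjusted p = 0.0304).

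Btg3 was listed at 0.266, 0 and 0.772 FPKM in WT and at 1.21, 1.244 and 2.198 FPKM in Lsm14b-KO, and Tob2 at 0.406, 0.356 and 0.657 FPKM against 1.12, 2.26 and 1.90 FPKM. Both, like Btg1, entered the test only through Lsm14b-KO, where they were high, so these calls give no count of their family. Both calls were lost when any library other than Lsm14b-KO replicate 1 was left out, with adjusted p up to 0.161 for Btg3 and 0.120 for Tob2 (limma). Btg3 was called in 7 of 17 alternatives and Tob2 in 11 of 18. The median log2 fold change over the 6 tested recruiters, 0.71 beside -0.08 over all genes, is set in part by the same minimum and gives no direction for them.

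Of 9 genes listed as other deadenylases or their relatives, 4 were tested and 1 was called, a share close to the 21.6% over all tested genes. Their median log2 fold change was -0.31. Whether each of them acts on poly(A) tails in oocytes was not tested. Noct (nocturnin), a relative of the CCR4-type exonucleases, was listed at 14.5, 12.3 and 11.4 FPKM in WT and at 4.13, 2.91 and 2.69 FPKM in Lsm14b-KO. All Lsm14b-KO values lay far under the WT values. Noct fell by 1.70 ± 0.23 (SE) on the log2 scale (adjusted p = 0.00380, limma), and this held under all 18 alternatives. Pan3, a subunit of the PAN2-PAN3 deadenylase that trims long tails, was at 19.3, 17.8 and 20.8 FPKM in WT and at 9.67, 26.8 and 37.8 FPKM in Lsm14b-KO. Those groups overlapped (adjusted p = 0.809), and without Lsm14b-KO replicate 1 Pan3 passed at 0.70 (adjusted p = 0.0372, limma). Without Lsm14b-KO replicate 3 its fitted value changed sign to -0.23 (adjusted p = 0.741, limma). Angel2 and Parn were not called (adjusted p = 0.117 and 0.0925), although Parn passed without Lsm14b-KO replicate 1 (0.82, adjusted p = 0.0422).

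Poly(A)-binding proteins, the counterpart of the deadenylases on the tail, were mostly under 1 FPKM, with 3 of 9 tested. Of the 3 tested, 1 was called, beside 21.6% of all tested genes, and the median log2 fold change was 0.34. Pabpn1l, an oocyte and embryo poly(A)-binding protein, was listed at 4.04, 2.0 and 3.59 FPKM in WT and at 0.643, 0.739 and 0.523 FPKM in Lsm14b-KO. The groups did not overlap, and its mean was 0.198 times that of WT (log2 fold change -1.33 ± 0.24, SE, adjusted p = 0.00990, limma). Pabpn1l reached 1 FPKM only in WT, where it was high, so this call gives no count of the list. The call was lost without WT replicate 1 (adjusted p = 0.0503), WT replicate 3 (0.0524) or Lsm14b-KO replicate 3 (0.0597), and with libraries scaled to the same sum (-0.95, adjusted p = 0.0511). Pabpc1l, a cytoplasmic form, was at 1.63, 1.61 and 1.58 FPKM in WT and at 2.04, 2.39 and 2.49 FPKM in Lsm14b-KO. These groups did not overlap either, but the difference of 0.34 was not called (adjusted p = 0.185, limma). Pabpc4 had a higher mean than Pabpc1l in both groups, at 1.91, 2.07 and 2.62 FPKM in WT and at 1.35, 5.48 and 3.62 FPKM in Lsm14b-KO. It was not called (adjusted p = 0.444) and passed without Lsm14b-KO replicate 1 (0.78, adjusted p = 0.0311, limma).

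Of the 9 enzymes that add nucleotides to the 3′ end of RNAs, some of which lengthen poly(A) tails or mark deadenylated mRNAs, 6 were tested. By limma, 0 of the 6 were called at an adjusted p under 0.05, beside 21.6% of all tested genes. At an unadjusted p under 0.05 there was 1 (Tent4b), and the median log2 fold change was -0.08. Of the 6, Tent2 and Tent4b reached 1 FPKM only in WT, where they were higher. A pass of Tent4b therefore gives no count of the list. The median is set in part by the same minimum and gives no direction. Mtpap, the mitochondrial poly(A) polymerase, was listed at 17.7, 18.9 and 27.1 FPKM in WT and at 13.6, 47.3 and 45.9 FPKM in Lsm14b-KO (adjusted p = 0.405). Tent4a was at 9.64, 10.5 and 9.89 FPKM in WT and at 5.08, 7.30 and 9.47 FPKM in Lsm14b-KO (adjusted p = 0.231). Mtpap overlapped between the groups, whereas all Tent4a values were lower in Lsm14b-KO. Without Lsm14b-KO replicate 1, 3 of the 6 passed: Mtpap (1.12, adjusted p = 0.00888), Papolg (0.92, adjusted p = 0.0220) and Tent4b (-0.63, adjusted p = 0.0370, limma). The same omission called 2898 of all 6398 tested genes. Mtpap did not pass without Lsm14b-KO replicate 2 or 3 (adjusted p = 0.738 and 0.745, limma).

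**Figure D4:**
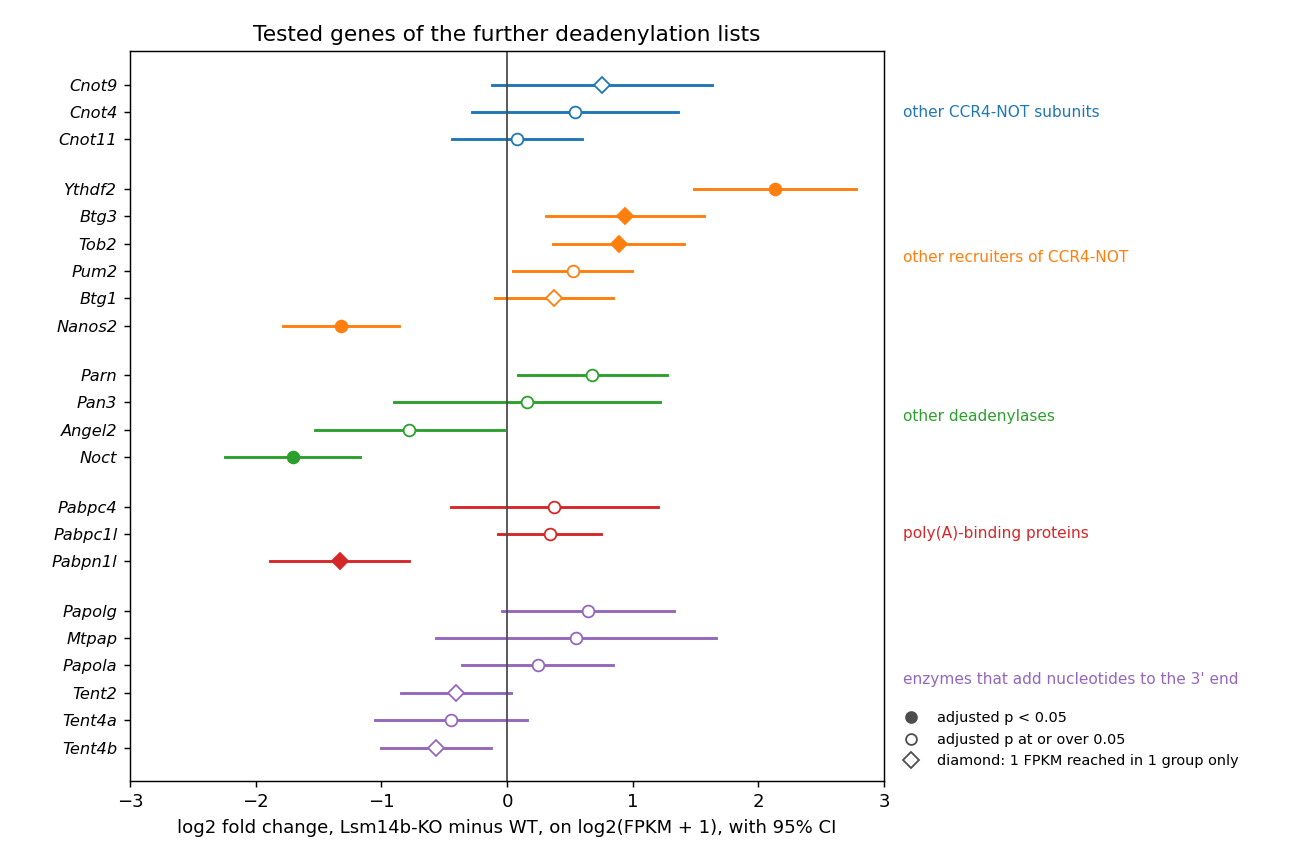
Log2 fold change (Lsm14b-KO minus WT, on log2(FPKM + 1)) with 95% confidence intervals from limma for the 22 tested genes of the 5 further lists. Filled symbols passed an adjusted p of 0.05, and diamonds reached 1 FPKM in 1 group only. Ythdf2, Btg3 and Tob2 are filled above 0, and Nanos2, Noct and Pabpn1l are filled below 0.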

How the data were processed

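RNA-Seq was analysed in 6 libraries, 3 WT and 3 Lsm14b-KO, grouped by title and genotype labels. Per the labels, RNA was amplified by Smart-seq2, read as pairs of 150 bases, trimmed, aligned to mm10 with TopHat2 (version 2.0.13), and the authors computed the deposited FPKM with Cufflinks (version 2.2.1), 1 column per library. The annotation, strandedness and age of the mice are not given in the sources used here, and 2 library kits are named in different places. The authors' columns of log2 fold change and of p-values and q-values from cuffdiff (version 2.2.1) were not used. The table holds no counts, so no count model was fitted. Values therefore move with the make-up of the whole library.

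Genes that reached 1 FPKM in any library were fitted on log2(FPKM + 1) with limma 3.58.1 in R 4.3.3 (lmFit, eBayes with a trend). Genotype was the only term. The fit was tested on simulated data. Ratios of 2 genes within a library were compared by exact permutation over the 6 libraries. The members, gene lists and tests were chosen with earlier results of these data known. Named were all members, Lsm14b, the called genes of each further list or otherwise its 2 most abundant, and the 3 genes most like Btg4; other list genes were named after their values were seen.

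Coordinates came from GENCODE vM21 (GRCm38, the assembly of mm10), near copies from blastn 2.17.0 at 95% identity over at least 200 nt, and promoters from RefSeq. Transcript length and GC content were found for 98.7% of tested genes. Alternatives were pseudocounts of 0.1 and 0.01, no minimum, a mean of at least 1 FPKM, 4 other scalings (TPM, quantile normalization, median ratio, and a loess correction for length and GC content), eBayes without trend or robust, a replicate block with and without that correction, and each library left out in turn.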

Additional observations from a re-analysis of the deposited data

How the results depend on the processing

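The fitted changes of the 7 tested members and Lsm14b were recomputed under 18 alternatives each. Lsm14b passed in all 18, and Btg4 and Cnot3 in 17. Scaled to the same sum (TPM), Cnot2 (0.34) and Cnot8 (0.16) changed sign, Cnot3 no longer passed (-0.97) and the poly(A)-binding proteins had 0 calls. After quantile normalization Btg4 missed the threshold (-1.12, adjusted p = 0.0649, limma). Without a minimum, 14325 genes entered the adjustment, 720 were called, Tob1 (1.05) lost its call at an adjusted p of 0.0820, and 2 recruiters were called. The length and GC correction called 1 enzyme that adds nucleotides, Tent4b, which reached the minimum only in WT. Across genes, the log2 fold change correlated with log2 transcript length (Pearson r = 0.33 over 6318 genes, -0.01 after correction). With a pseudocount of 0.1, the difference in log2 ratio was 1.46 for Cnot6l to Cnot6 and -3.37 for Btg4 to Tob1. The cause of these shifts was not tested.

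With each library left out in turn, the log2 fold change of Tob1 ran from 0.87 to 1.27, of Cnot6l from 0.45 to 0.94 and of Cnot7 from -1.20 to -0.65. Called genes ran from 315 (without Lsm14b-KO replicate 3) to 2898 (without Lsm14b-KO replicate 1), members from 2 to 5, other subunits from 0 to 2, recruiters from 2 to 4, other deadenylases from 1 to 3, poly(A)-binding proteins from 0 to 2 and enzymes that add nucleotides from 0 to 3. The counts of other subunits, recruiters, poly(A)-binding proteins and enzymes that add nucleotides include genes that reached the minimum in 1 group only. All genes called numbered 396, 397 and 462 without WT replicates 1, 2 and 3 and 865 without Lsm14b-KO replicate 2.

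Replicate numbers are shared between the groups, but deviations of same-numbered libraries correlated at only 0.190, -0.128 and 0.018, and not every library correlated best with its own number, so the numbers were not taken as pairs. With the replicate block 1244 genes were called (1297 with the length and GC correction as well), and Btg4, Cnot3 and Tob1 were called in both fits. Depth limits Zfp36l2, at 0 to 4 steps above 0. Cnot1 and Cnot6 were left out of the main test by the minimum of 1 FPKM.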
